A study of Mus musculus with 24 samples.

Results

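The genes that switch off extracellular signal-regulated kinase (ERK) signaling were followed through 24 RNA-seq libraries of the mouse nucleus accumbens and ventral tegmental area (VTA). They comprised 9 genes chosen by symbol, with earlier results of these data known. These were the dual-specificity phosphatases Dusp1, Dusp2, Dusp4, Dusp5, Dusp6 and Dusp14, the Sprouty genes Spry2 and Spry4, and the Sprouty-related gene Spred1. All 9 were found among the 30270 genes of the deposited tables. Wild-type C57BL/6 mice and vitamin D receptor knockout (Vdr-/-) mice were injected intraperitoneally with either PBS or 5 mg/kg morphine. Bilateral micropunches of both regions were taken as from 90 min after injection, with 3 mice for each combination of genotype and injection. The paper names this time for sequencing of the nucleus accumbens and no time for that of the VTA. For its PCR and protein assays it names an earlier time for saline mice. A nucleus accumbens and a VTA library with the same number in their labels were taken as 1 mouse, giving 12 mice, although the sources used here do not state this outright. The Vdr-/- mice lack the receptor in every cell and were raised on a diet rich in calcium and lactose, so that genotype and diet cannot be told apart here.

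ERK is the last kinase of a cascade that runs from growth factor and neurotransmitter receptors through Ras, Raf and MEK. It is activated in the nucleus accumbens by drugs of abuse and by dopamine acting together with glutamate, and it drives the transcription of immediate early genes. Several of its target genes encode proteins that shut the cascade down again, and their mRNA levels therefore often follow recent ERK activity. Dusp1, Dusp2, Dusp4 and Dusp5 encode inducible phosphatases of the nucleus, of which Dusp5 is selective for ERK, whereas Dusp1 also acts on the stress kinases p38 and JNK. Dusp6 encodes the cytoplasmic phosphatase selective for ERK, and Dusp14 a small phosphatase that lacks the kinase-binding domain of the others. Sprouty proteins act upstream, between receptor tyrosine kinases and Ras, and Spred1 brings neurofibromin to the membrane to inactivate Ras.

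Promoter sequences of 3 of the phosphatase genes are shown because they differ in the regulatory elements that link transcription to kinase signaling. RefSeq promoters on build GRCm38.p6 were matched for 7 of the 9 genes, and those of Dusp4 and Spry4 were not analysed here. Each sequence runs 5′ to 3′ over the 250 bases before the transcription start, and capitals mark a motif found on either strand. The Dusp1 sequence lies at chr17:26508473-26508722 on the minus strand, the Dusp5 sequence at chr19:53528895-53529144 on the plus strand, and the Dusp14 sequence at chr11:84068358-84068607 on the minus strand.
Dusp1: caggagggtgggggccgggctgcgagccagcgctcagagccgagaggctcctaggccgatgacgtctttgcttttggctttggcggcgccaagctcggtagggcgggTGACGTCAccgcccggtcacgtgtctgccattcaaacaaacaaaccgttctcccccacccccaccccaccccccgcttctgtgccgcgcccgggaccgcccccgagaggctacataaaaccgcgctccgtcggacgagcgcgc
Dusp5: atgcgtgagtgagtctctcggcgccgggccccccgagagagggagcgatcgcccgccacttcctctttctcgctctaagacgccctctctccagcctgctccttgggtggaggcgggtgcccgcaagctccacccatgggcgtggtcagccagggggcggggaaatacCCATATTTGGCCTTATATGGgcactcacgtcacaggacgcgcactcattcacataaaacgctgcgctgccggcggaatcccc
Dusp14: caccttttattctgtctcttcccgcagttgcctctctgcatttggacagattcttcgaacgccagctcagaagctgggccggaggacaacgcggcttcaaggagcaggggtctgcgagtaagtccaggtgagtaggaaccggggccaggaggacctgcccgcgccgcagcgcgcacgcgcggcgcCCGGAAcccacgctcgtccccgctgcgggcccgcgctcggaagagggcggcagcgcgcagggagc

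The Dusp1 sequence held the palindromic cAMP response element TGACGTCA, the site bound by CREB, which began 143 bases before the start. That element was present in 508 of 32851 promoter windows of the same length (1.55%) and in 1 of the 7 members. The Dusp5 sequence held 2 adjacent CArG boxes, the site of serum response factor, which began 82 and 72 bases before the start. A CArG box was present in 1.47% of all windows and in Dusp5 alone among the 7. The Dusp14 sequence held the ETS core CCGGAA, beginning 65 bases before the start, which was present in 12% of all windows. The CCAAT letters were found in Dusp6 and in 33.8% of all windows, and the AP-1 site TGANTCA in none of the 7 and in 6.75% of all windows. A vitamin D response element, searched as a direct repeat with a spacer of 3 bases, was found in none of the 7 and in 0.0396% of all windows. These matches describe the letters of the windows only.

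Reads assigned to genes ranged from 9328726 to 30184426 per library. Levels are given below either as normalised read counts, the values of the deposited tables, or as CPM, the recovered reads relative to the library total, for comparisons between regions. Vdr itself held 0 to 17 reads in every library of either genotype and could not check the labels, whereas Tuba1c, a gene near Vdr on chromosome 15, lay between 0.299 and 1.21 CPM in wild-type and between 22.7 and 42.3 CPM in Vdr-/- libraries. The regions carried their own markers, with a summed level of 10 medium spiny neuron markers of 2057 to 4172 CPM in the nucleus accumbens and 223.5 to 297.6 CPM in the VTA, and none of the 10 at 0. In the nucleus accumbens of wild-type PBS mouse 2, levels relative to the other libraries fell with exon length across genes (Spearman's rho -0.372), against -0.0685 to 0.221 in the other 11 libraries of that region. In Vdr-/- nucleus accumbens rho was -0.0685 to 0.0391 with PBS and 0.0631 to 0.221 with morphine. In the VTA it was -0.212 to -0.0284 with PBS and 0.0223 to 0.152 with morphine. Spred1 (6.78 kb of exon) and Spry4 (4.76 kb) were the longest members. The part of exon length in the morphine comparisons was not tested. In bulk tissue, fewer cells of a type and less RNA per cell cannot be told apart.

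The largest fitted difference among these genes, that of Dusp14, was between the regions. Spry4 and Dusp4 differed more with morphine in Vdr-/- nucleus accumbens (log2 fold changes 1.02 and 0.75) than between the regions (-0.44 and 0.33). Per length of exon, Spred1 had the highest level and Dusp2 the lowest in both regions, while the order in between differed. In the nucleus accumbens, Spred1 averaged 31.5 ± 4.19 CPM per kb (SD, n = 12 libraries), Spry2 22.3 ± 3.05, Dusp14 16.3 ± 3.37 and Dusp6 11 ± 1.96 CPM per kb. Each of these exceeded the next in 12 of 12 libraries, although the ranges of neighbours overlapped down to Dusp6. Dusp1 followed at 5.38 ± 0.977 CPM per kb. Spry4 at 3.37, Dusp4 at 3.23 and Dusp5 at 3.06 CPM per kb were not separated from one another, since Spry4 exceeded Dusp4 in 6 and Dusp4 exceeded Dusp5 in 7 of 12 libraries. Dusp2 had 0.238 ± 0.0552 CPM per kb.

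In the VTA the order of levels was Spred1 (25.0 ± 2.33 CPM per kb), Spry2 (8.19 ± 1.26), Dusp6 (5.32 ± 0.555), Spry4 (4.49 ± 0.527), Dusp1 (3.43 ± 0.739), Dusp14 (3.15 ± 0.806), Dusp4 (2.45 ± 0.411), Dusp5 (0.83 ± 0.325) and Dusp2 (0.193 ± 0.0633). Dusp14 was thus the third of the 9 in the nucleus accumbens and the sixth in the VTA, where it exceeded Dusp4 in 8 of 12 libraries and was exceeded by Dusp1 in 8 of 12. Exons of Dusp1 overlap those of Ergic1, and exons of Dusp5 overlap a gene on the other strand, so their levels are uncertain to the extent that the counting did not separate the strands. Dusp2, an inducible phosphatase best known from immune cells, had only 2 to 12 reads per library, and its mean stayed below the filter of 10 normalised reads, so that 8 of the 9 genes were tested.

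**Figure D1:**
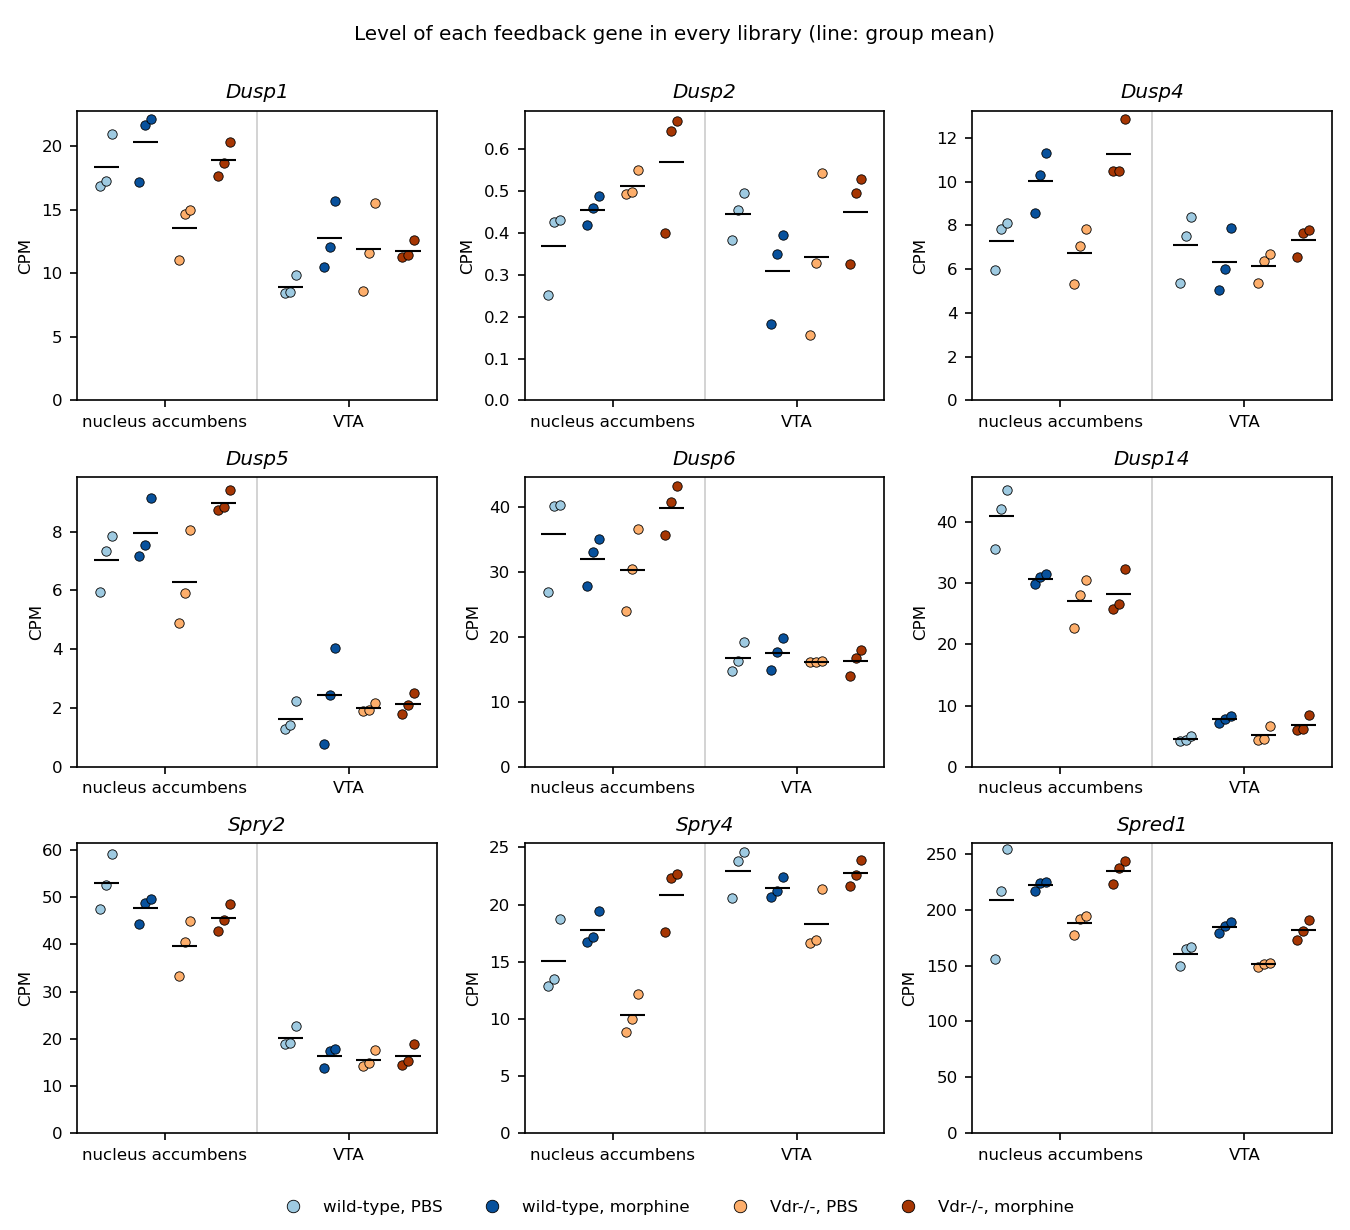
Level of each of the 9 genes in CPM (y axis from 0) in every library, with 3 mice per group and a line at the group mean, by region, genotype and injection (x axis). Dusp14, Dusp5, Spry2 and Dusp6 are higher in every nucleus accumbens library than in any VTA library, and Spry4 leans the other way.

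All 8 tested genes differed between the regions when the nucleus accumbens was compared with the VTA of the same mouse, 7 with a higher level in the nucleus accumbens and Spry4 with a higher level in the VTA (limma on within-mouse differences of log2(CPM + 1), 12 mice). Differences between regions were the rule among all genes, since 72.8% of 16560 genes tested were called and 33.9% were called higher and 38.9% lower in the nucleus accumbens. Dusp14 ranged from 22.7 to 45.3 CPM (median 30.8) in the nucleus accumbens and from 4.22 to 8.41 CPM (median 6.17) in the VTA. The ranges did not overlap, and the level was higher in the nucleus accumbens in 12 of 12 mice, by a median of 4.59-fold (log2 difference 2.21 ± 0.07 SE, adjusted p = 6.06e-10).

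Dusp5 ranged from 4.88 to 9.43 CPM (median 7.69) in the nucleus accumbens and from 0.79 to 4.06 CPM (median 2.03) in the VTA, a median ratio within mice of 3.96 (log2 difference 1.51 ± 0.10 SE, adjusted p = 7.7e-08). Spry2 ranged from 33.4 to 59.1 CPM against 13.8 to 22.7 CPM, with a median ratio of 2.80 (log2 difference 1.39 ± 0.07, adjusted p = 9.21e-09). Dusp6 ranged from 24 to 43.1 CPM against 14.0 to 19.8 CPM, with a median ratio of 2.15 (log2 difference 0.99 ± 0.07, adjusted p = 7.6e-08). These 3 genes and Dusp14 were the members whose regional ranges did not overlap, which was the case for 23.9% of all genes tested.

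The other 4 differed less. Dusp1 was higher in the nucleus accumbens in 10 of 12 mice, with a median ratio of 1.64 (log2 difference 0.61 ± 0.06, adjusted p = 4.34e-06). Dusp4 was higher in 10 of 12 mice, with a median ratio of 1.30 (0.33 ± 0.04, adjusted p = 1.09e-05), and Spred1 in 11 of 12, with a median ratio of 1.28 (0.33 ± 0.06, adjusted p = 0.000221). Spry4 had its higher level in the VTA, at 16.6 to 24.6 CPM (median 21.5) against 8.82 to 22.7 CPM (median 17.0) in the nucleus accumbens, with a median VTA to nucleus accumbens ratio of 1.27 (log2 difference -0.44 ± 0.04, adjusted p = 2.91e-06). All 8 calls and directions held under the 6 other settings tried, the fit without pairing among them, and without each of the 12 mice.

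**Figure D2:**
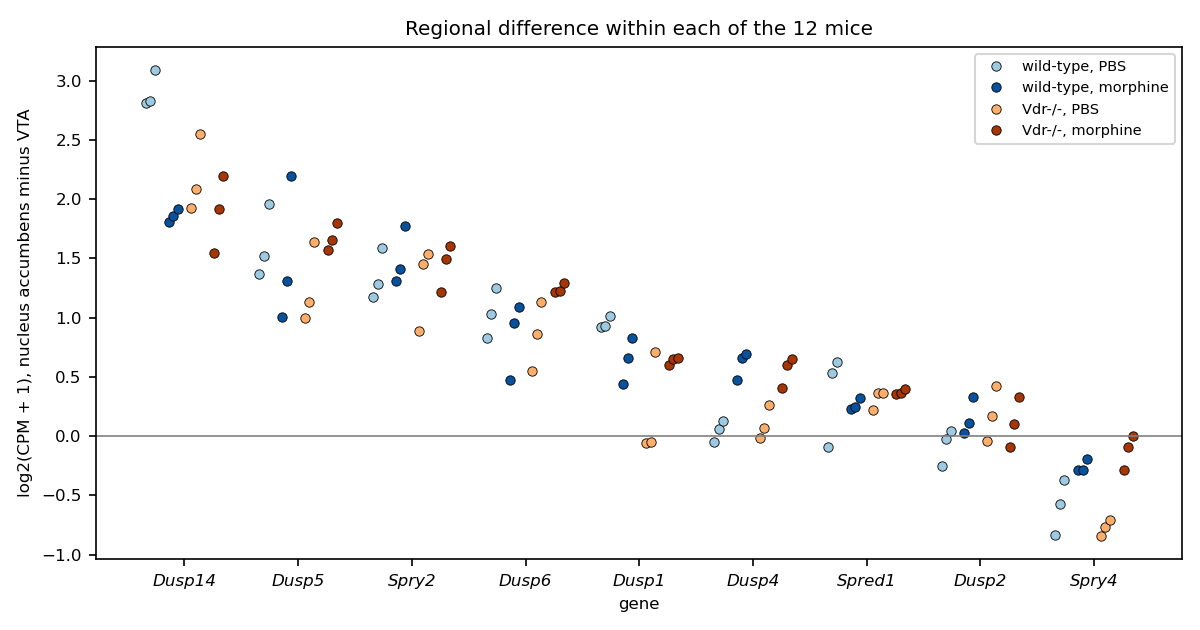
Difference in log2(CPM + 1) between the nucleus accumbens and the VTA of the same mouse (y axis, 0 meaning equal levels) for each gene (x axis, by mean difference), with 1 point per mouse and 3 mice per group. Dusp14 has its largest differences in the 3 wild-type PBS mice, and Dusp4 lies near 0 in the 6 PBS mice and above it in the 6 morphine mice.

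Genes around the cascade were read from lists compiled from general knowledge, with earlier results of these data known. The lists are thus described here and not tested. Their counts stand beside 33.9% of all genes called higher in the nucleus accumbens and 38.9% called higher in the VTA. Of 23 ERK cascade components tested, 15 were higher in the nucleus accumbens and 7 higher in the VTA, among them the genes of the ERK-activated kinases Rps6ka3 (log2 difference 1.12) and Rps6ka5 (1.05). Among 20 genes of ERK-responsive transcription and early response, 15 were higher in the nucleus accumbens and 1 higher in the VTA, with a median log2 difference of 1.73 against -0.03 over all genes. The largest were the zinc-finger early genes Egr3 (4.15), Egr4 (3.12) and Egr2 (2.49). Of 15 growth factors and receptors, 2 were higher in the nucleus accumbens and 11 higher in the VTA, with Fgf1 (-1.31), Fgfr3 (-0.96) and Bdnf (-0.93) the most different. The 14 tested relatives of the 9 genes were divided, 6 higher in each region, with Dusp15 (-0.93) and Dusp16 (-0.85) higher in the VTA and Dusp18 (0.68) in the nucleus accumbens. Of 11 other brakes on Ras and receptors, 6 were higher in the nucleus accumbens and 5 higher in the VTA, among them the Ras GTPase-activating protein gene Rasal1 (1.60) in the former and Lrig1 (-1.55), which restrains receptors of the epidermal growth factor family, in the latter. Of 10 stress kinases, 3 were higher in the nucleus accumbens and 5 higher in the VTA, and of 12 glucocorticoid-induced genes 3 and 9.

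Morphine was compared with PBS within each genotype and region. In the nucleus accumbens of Vdr-/- mice, 6 of the 8 tested genes rose, namely Spry4, Dusp4, Dusp5, Dusp1, Dusp6 and Spred1 (limma, Benjamini-Hochberg over all genes). Of 15820 genes tested in that comparison, 9.94% were called higher. The median log2 fold change of the 8 genes was 0.45 against -0.01 over all genes. Because the members were chosen with earlier results of these data known, these values are a description.

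Spry4, the gene with the largest change, had 188, 154 and 136 normalised reads in Vdr-/- PBS mice 7, 8 and 9 and 345, 350 and 273 in morphine mice 2.0, 2.1 and 2.2. The 3 morphine libraries lay above all PBS libraries, and the mean was 322.5 ± 43.4 against 159.1 ± 26.3 (SD, n = 3 each), a ratio of 2.03 (log2 fold change 1.02 ± 0.13 SE, adjusted p = 0.000555). Dusp4 had 121, 109 and 81.9 normalised reads with PBS and 198, 162 and 163 with morphine (ratio 1.68, log2 fold change 0.75 ± 0.15, adjusted p = 0.00565). Its groups did not overlap either. Both calls held under every setting tried and without each of the 6 libraries.

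Spred1 had 2954, 2990 and 2735 normalised reads in the PBS mice and 3757, 3665 and 3463 in the morphine mice (ratio 1.25, log2 fold change 0.33 ± 0.05, adjusted p = 0.00177). This small change exceeded the spread of an abundant transcript, and the call held without each library. It was lost when edgeR was fitted to all 12 libraries of the region (adjusted p = 0.147).

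Dusp1 had 226, 170 and 231 normalised reads with PBS and 289, 272 and 316 with morphine (ratio 1.40, log2 fold change 0.49 ± 0.12, adjusted p = 0.0147). Dusp5 had 124, 74.9 and 91.2 against 135, 136 and 146 (ratio 1.44, 0.55 ± 0.16, adjusted p = 0.0371). In both genes every morphine library lay above every PBS library, with PBS mouse 8 the lowest. Dusp6 had 563, 368 and 470 against 666, 628 and 553 (ratio 1.32, 0.41 ± 0.13, adjusted p = 0.0407), and its groups overlapped because PBS mouse 7 exceeded morphine mouse 2.2.

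These 3 calls were less stable than the others. Dusp5 and Dusp6 were lost without any 1 of mice 2.0, 2.1, 2.2, 8 and 9, and Dusp1 without mouse 2.2. Without the trend in the variance the count was 3 genes (Spry4, Dusp4 and Spred1), and with edgeR on all 12 libraries it was 2 (Spry4 and Dusp4). Groups did not overlap, with morphine higher, for 5 of the 8 genes and for 18.5% of all genes tested.

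Dusp14 and Spry2 were not called in these mice. Dusp14 had 470, 348 and 433 normalised reads with PBS and 498, 409 and 399 with morphine (log2 fold change 0.06 ± 0.11, adjusted p = 0.73), and Spry2 had 692, 513 and 625 against 750, 698 and 663 (0.21 ± 0.10, adjusted p = 0.139). In both, the groups overlapped. Dusp2 lay between 7.6 and 8.4 with PBS and between 6.2 and 10.3 with morphine.

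**Figure D3:**
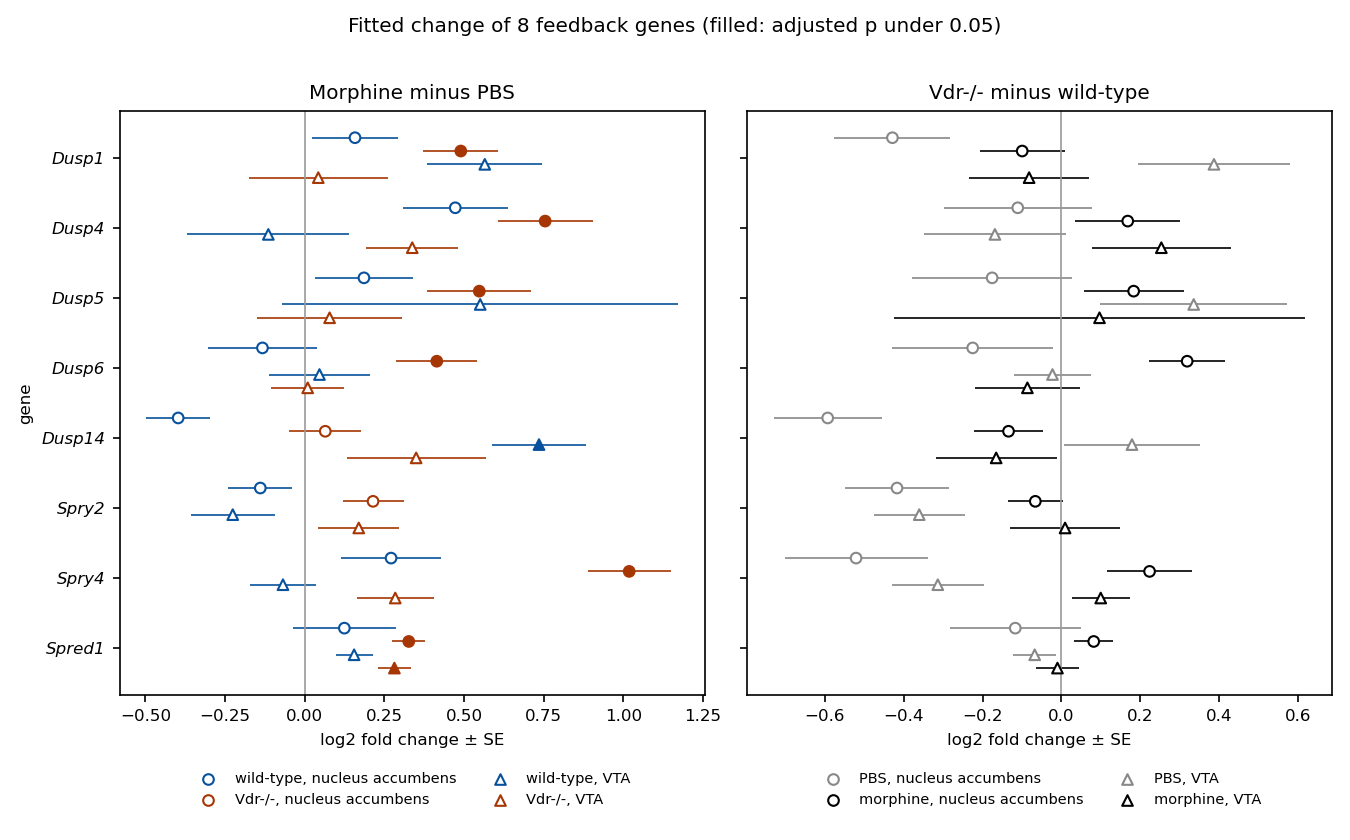
Fitted log2 fold change with its standard error (x axis) for the 8 tested genes (y axis), for morphine minus PBS on the left and Vdr-/- minus wild-type on the right, in both regions; filled symbols mark an adjusted p under 0.05. The filled symbols are 6 genes in the nucleus accumbens of Vdr-/- mice, Dusp14 in the wild-type VTA and Spred1 in the Vdr-/- VTA, and none on the right.

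In the nucleus accumbens of wild-type mice, 0 of the 8 genes was called, where 128 of 15749 genes were called (0.813%) and 2616 had an unadjusted p under 0.05. DESeq2 and edgeR on the recovered reads of these libraries also called none of the 8. Spry4 had 284, 205 and 193 normalised reads in PBS mice 1, 2 and 3 and 262, 296 and 257 in morphine mice 1.0, 1.1 and 1.2 (log2 fold change 0.27 ± 0.16, adjusted p = 0.423). Its groups overlapped, because PBS mouse 1 lay within the range of the morphine mice. Dusp4 had 123, 90.8 and 118 against 130, 156 and 173 (0.47 ± 0.17, adjusted p = 0.23), groups that did not overlap, with morphine higher, as in 12.3% of all genes tested.

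Dusp14 went the other way in wild-type mice, with 640, 544 and 680 normalised reads after PBS and 479, 454 and 475 after morphine (ratio 0.756, log2 fold change -0.40 ± 0.10, adjusted p = 0.128). Every morphine library was below every PBS library, as in 13.2% of all genes tested. The difference did not pass the threshold except without PBS mouse 2, the library with the strongest relation to exon length. The remaining genes had log2 fold changes of 0.16 (Dusp1), 0.19 (Dusp5), -0.13 (Dusp6), -0.14 (Spry2) and 0.12 (Spred1), and in each the groups overlapped.

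Whether morphine acted differently in the genotypes was tested as an interaction. In the nucleus accumbens the log2 fold change with morphine was higher in Vdr-/- than in wild-type mice for all 8 genes. The same held for 47.7% of all genes. For Dusp14 the change was larger in size in wild-type mice (-0.40) than in Vdr-/- mice (0.06). The differences in log2 fold change ran from 0.20 (Spred1) to 0.75 ± 0.23 SE (Spry4), with a median of 0.36 against -0.01 over all genes. None passed the threshold (adjusted p = 0.832 to 0.867), and 0 of 15788 genes did, while 916 had an unadjusted p under 0.05 and edgeR and DESeq2 likewise called none of the 8. A genotype difference in the response was therefore not shown for any of these genes.

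The same libraries gave different levels of other cell types. The summed level of the 10 medium spiny neuron markers was 3175 to 3698 CPM in Vdr-/- PBS and 2057 to 2392 CPM in Vdr-/- morphine libraries of the nucleus accumbens, with all 10 called lower (9.13% of all genes were) and none at 0. In wild-type mice it was 3666 to 4172 CPM with PBS and 2264 to 2889 CPM with morphine, with 3 of the 10 called lower (0.4% of all genes were). Of 8 oligodendrocyte markers 5 were called lower in Vdr-/- mice, with sums of 4340 to 4560 CPM with PBS and 3809 to 4050 CPM with morphine. Of 8 microglial markers 4 were called lower, with sums of 316 to 336 CPM with PBS and 258 to 285 CPM with morphine. Of 8 astrocyte markers 4 were called higher and 1 lower, although their sums overlapped, at 4826 to 5443 CPM with PBS and 4899 to 5424 CPM with morphine. None of these markers was at 0. The part of these cell types in the changes of the feedback genes was not tested.

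**Figure D4:**
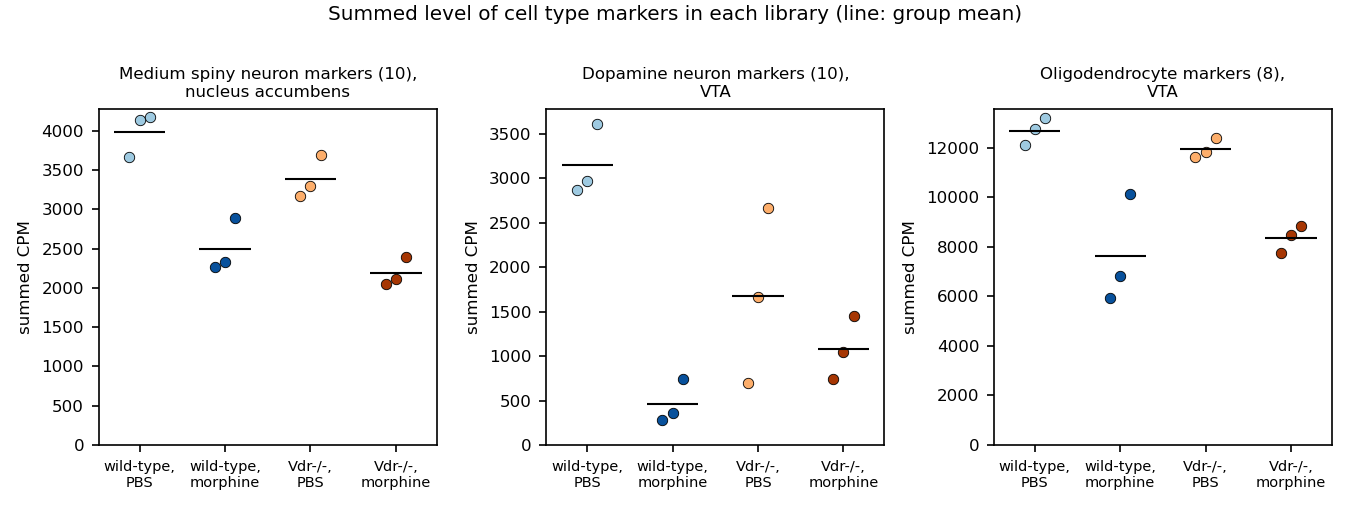
Summed level in CPM (y axis from 0) of 10 medium spiny neuron markers in the nucleus accumbens and of 10 dopamine neuron and 8 oligodendrocyte markers in the VTA, with 1 point per library, 3 libraries per group (x axis) and a line at the group mean. Medium spiny neuron markers are lower in all morphine libraries, and dopamine neuron markers run from 277 to 741 CPM in wild-type morphine and from 2873 to 3613 CPM in wild-type PBS libraries.

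Other genes around the cascade were also called in the nucleus accumbens of Vdr-/- mice, where 9.94% of all genes were called higher and 9.13% lower. The list counts are given beside these shares as a description. Of 20 genes of ERK-responsive transcription and early response, 8 rose and none fell, with a median log2 fold change of 0.36. The largest changes were in Arc, a synaptic early gene (1.28, adjusted p = 0.000728), and in the AP-1 subunit genes Fosl2 (1.19, adjusted p = 0.000393) and Fos (1.11, adjusted p = 0.0011). Of 14 growth factors and receptors, 6 rose and none fell, led by the neurotrophin gene Bdnf (1.25, adjusted p = 0.0028), Fgf1 (0.53) and Egfr (0.47). The cascade itself was mixed, with 3 of 23 genes higher and 6 lower. Sos1, which loads Ras with GTP, rose by 0.34, while Mapk3, a gene of ERK itself, fell (-0.33). Of 14 relatives of the 9 genes, 2 rose, both of the Spred family, Spred3 (0.56, adjusted p = 0.000287) and Spred2 (0.26, adjusted p = 0.0296).

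Among 11 other brakes on Ras and receptors 3 rose and 1 fell, with Errfi1 (0.27) and Cbl (0.19) higher and Rasal1 (-0.25) lower. Of 10 stress kinases 1 was called lower, Mapk10 (-0.18), where 9.13% of all genes were. Of 12 glucocorticoid-induced genes, a list included because injection is a stressor and Dusp1 is itself induced by glucocorticoids, 3 rose and 3 fell, among them Zbtb16 (0.54), Mt1 (-0.61) and Mt2 (-0.46). In wild-type nucleus accumbens, where 0.813% of all genes were called, these lists held 2 calls in all, Fosl2 (0.82, adjusted p = 0.039) and Plin4 (1.66, adjusted p = 0.0439).

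In the VTA, the morphine tables held 3 morphine and 2 PBS libraries for each genotype. In wild-type mice Dusp14 was the 1 member called, where 1.77% of 16187 genes were called higher. It had 93.2 and 78.1 normalised reads in PBS mice 1 and 2 and 152, 133 and 143 in morphine mice 1.0, 1.1 and 1.2. The means were 142.9 ± 9.53 (SD, n = 3) against 85.7 ± 10.7 (n = 2), a ratio of 1.67 (log2 fold change 0.74 ± 0.15 SE, adjusted p = 0.0495). The groups were apart, as were those of Spred1, Dusp1 and, with morphine lower, Spry2, which were not called. The share of all genes with groups apart is not given for this comparison, so this does not set the members apart from other genes. The Dusp14 call was lost with edgeR on the same libraries (adjusted p = 0.0526), without the trend in the variance (adjusted p = 0.0847), and without any 1 of mice 1.0, 1.2, 1 and 2, and it held with DESeq2 and with all 3 PBS mice.

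Dopamine neuron markers, 10 genes none of which was at 0, summed to 2974 to 3613 CPM in the 2 wild-type PBS and 277 to 741 CPM in the 3 wild-type morphine libraries of this comparison, with 8 called lower (1.88% of all genes were). Microglial markers summed to 331 to 359 CPM against 200 to 221 CPM, with 6 of 8 called lower. Oligodendrocyte markers summed to 12753 and 13198 CPM in PBS mice 1 and 2 and to 5954.5 to 10144 CPM with morphine. The part of these markers in the Dusp14 values was not tested. Dusp1 had 156 and 156 normalised reads with PBS and 193, 291 and 221 with morphine (log2 fold change 0.57 ± 0.18, adjusted p = 0.124). Dusp5 varied most among the morphine mice, at 14.5, 75.1 and 44.7 against 23.3 and 26.4 with PBS (0.55 ± 0.62, adjusted p = 0.628). The other 5 tested genes had log2 fold changes from -0.23 (Spry2) to 0.16 (Spred1).

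In Vdr-/- VTA, Spred1 was the 1 member called, where 4.74% of 16364 genes were called higher. It had 2850 and 2847 normalised reads in PBS mice 7 and 9 and 3610, 3476 and 3309 in morphine mice 2.0, 2.1 and 2.2 (ratio 1.22, log2 fold change 0.28 ± 0.05, adjusted p = 0.0229). The groups did not overlap, and neither did those of Dusp4 and Spry4, which were not called. The share of all genes without overlap is not given for this comparison, so this does not set the members apart from other genes. The Spred1 call was lost without the trend (adjusted p = 0.106) and without any 1 of mice 2.1, 2.2, 7 and 9, and held with edgeR, DESeq2 and all 3 PBS mice. Dusp14 (0.35 ± 0.22), Dusp4 (0.34 ± 0.14) and Spry4 (0.28 ± 0.12) were not called, at adjusted p from 0.166 to 0.326, and the other 4 genes lay between 0.01 and 0.17. All 8 oligodendrocyte markers were called lower in this comparison (5.28% of all genes were), with sums of 11845 to 12391 CPM in PBS mice 7 and 9 and 7770 to 8833 CPM with morphine, and their part in the Spred1 values was not tested.

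Of all genes in the VTA, 1.77% were called higher and 1.88% lower with morphine in wild-type mice, and 4.74% and 5.28% in Vdr-/- mice. The list counts that follow are given beside these shares as a description. Of 19 genes of ERK-responsive transcription and early response tested in the VTA, 2 rose and 1 fell in wild-type mice, and 6 rose and 0 fell in Vdr-/- mice. Fosl2 and Fosb, both genes of AP-1 subunits, rose in wild-type (0.99 and 1.16) and in Vdr-/- mice (1.32 and 1.04), and Fos rose in Vdr-/- mice (0.68, adjusted p = 0.0371). Etv5, an ETS factor gene induced by growth factor signaling, fell in wild-type mice (-0.92, adjusted p = 0.023). Of the 15 tested relatives, 1 was called in each genotype, Dusp18 in wild-type (0.59, adjusted p = 0.0211) and Spred3 in Vdr-/- mice (0.35, adjusted p = 0.0316). Fgfr2, which oligodendrocytes also express, fell in both genotypes (-0.79 and -0.26), and Bdnf rose in Vdr-/- mice (0.77, adjusted p = 0.00821). Of 12 glucocorticoid-induced genes 1 rose in wild-type mice, Cdkn1a (1.33), and 4 fell in Vdr-/- mice, with Mt2 (-1.18), Mt1 (-1.04) and Nfkbia (-0.62) the largest. The interaction in the VTA called 9 of 16288 genes (0.0553%) and none of the 8 members. The log2 fold change with morphine was higher in Vdr-/- mice for 4 of the members and lower for 4.

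Genotype was compared within each injection and region, and 0 of the 8 genes was called in any of the 4 comparisons. The percentages of genes called were 0.069% and 0.192% in the nucleus accumbens after PBS and morphine, and 0.39% and 0.0624% in the VTA, and edgeR and DESeq2 on the recovered reads called none of the 8. After PBS, 1424 genes of the nucleus accumbens had an unadjusted p under 0.05, and all 8 genes were lower in Vdr-/- mice, by log2 fold changes from -0.59 (Dusp14) to -0.11 (Dusp4), with a median of -0.32 against 0.01 over all genes. The sign was opposite for Dusp4 and for Spred1 when 1 library was left out.

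Dusp14 had 708, 598 and 755 normalised reads in wild-type PBS mice 1, 2 and 3 and 515, 382 and 473 in Vdr-/- PBS mice 7, 8 and 9 (log2 fold change -0.59 ± 0.14, adjusted p = 0.376). Spry4 had 314, 226 and 215 against 205, 168 and 149 (-0.52 ± 0.18, adjusted p = 0.493), and Spry2 992, 798 and 875 against 758, 562 and 683 (-0.42 ± 0.13, adjusted p = 0.461). In these 3 genes and in Dusp1 (-0.43 ± 0.15) every Vdr-/- library was below every wild-type library, as in 9.68% of all genes tested. Dusp2 had 4.2, 7.1 and 7.2 normalised reads in wild-type and 8.4, 9.2 and 8.3 in Vdr-/- mice (exact permutation test, two-sided, p = 0.1, the smallest 3 against 3 mice can give), values that rest on 4 to 10 reads.

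Among the lists around the cascade, 2 held genes called between genotypes. In the VTA after PBS, where 0.39% of all genes were called, 4 of 12 glucocorticoid-induced genes, the list that goes with Dusp1, were called higher in Vdr-/- mice. The largest were the lipid droplet gene Plin4 (log2 fold change 1.80, adjusted p = 0.0191), the cell cycle inhibitor gene Cdkn1a (1.62, adjusted p = 0.0176) and Nfkbia, which encodes an inhibitor of NF-κB (0.87, adjusted p = 0.0191). Dusp1 itself had a log2 fold change of 0.39 in that comparison and was not called. Dopamine neuron markers summed to 2873 to 3613 CPM in the wild-type and 693 to 2667 CPM in the Vdr-/- libraries compared there. The part of these markers in the genotype values was not tested. In the nucleus accumbens after morphine, 1 of 20 genes of ERK-responsive transcription and early response was called higher, the activity-induced transcription factor gene Npas4 (0.44, adjusted p = 0.044).

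The Vdr-/- PBS libraries that were low here are also the control libraries of the morphine comparison in Vdr-/- mice, so the 2 comparisons are not independent. For Spry4, the log2 fold change was -0.52 for genotype after PBS and 1.02 for morphine in Vdr-/- mice, and after morphine the genotype difference was 0.22 ± 0.11 (adjusted p = 0.667). For Dusp6 the corresponding values were -0.22, 0.41 and 0.32 ± 0.10 (adjusted p = 0.438). After morphine, 5 of the 8 genes had a higher and 3 a lower mean in Vdr-/- mice, and Dusp6 was the 1 gene whose groups did not overlap, with Vdr-/- mice higher as in 6.08% of all genes tested. In the VTA the signs were divided, 3 higher and 5 lower after PBS and 4 and 4 after morphine, with log2 fold changes between -0.36 (Spry2, PBS) and 0.39 (Dusp1, PBS).

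The change of the regional difference with morphine was tested with libraries paired by their label number, a comparison added after the data were seen. In wild-type mice it was called for 2 of the 8 genes and for 4.57% of 16560 genes. Dusp14 had 42.2, 35.7 and 45.3 CPM in the nucleus accumbens and 5.10, 4.22 and 4.45 CPM in the VTA of PBS mice 1, 2 and 3. In morphine mice 1.0, 1.1 and 1.2 it had 31.5, 29.9 and 31.0 CPM in the nucleus accumbens and 8.30, 7.20 and 7.81 CPM in the VTA. The regional difference was thus 2.91 on the log2 scale after PBS and 1.86 after morphine, a change of -1.05 ± 0.20 SE (adjusted p = 0.0209).

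Dusp4 moved the opposite way, from a regional difference of 0.05 after PBS to 0.61 after morphine in wild-type mice (change 0.56 ± 0.11, adjusted p = 0.0211). Its levels were 8.09, 5.96 and 7.85 CPM in the nucleus accumbens against 8.40, 5.37 and 7.49 CPM in the VTA after PBS. After morphine they were 8.56, 10.3 and 11.3 CPM against 5.04, 5.99 and 7.88 CPM. Without the pairing, Dusp14 was still called (adjusted p = 0.00323) and Dusp4 was not (adjusted p = 0.149). Both paired calls were lost without any 1 of mice 1.0, 1.2 and 3, and that of Dusp4 also without mouse 1. These are the groups in which medium spiny neuron markers of the nucleus accumbens and dopamine neuron markers of the VTA were lower with morphine.

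In Vdr-/- mice limma called 0 genes for the same change, with 2255 at an unadjusted p under 0.05. Spry4 had the largest value of the 8 (0.65 ± 0.12, adjusted p = 0.099), from a regional difference of -0.77 after PBS to -0.12 after morphine, and Dusp4 again went from 0.11 to 0.56 (change 0.45 ± 0.11, adjusted p = 0.124). When the regional difference was compared between the genotypes, limma called 0 genes after PBS and 0 after morphine, with 1120 and 776 at an unadjusted p under 0.05. Within single groups, the regional difference of Dusp14, Dusp5, Spry2 and Dusp6 was called in all 4, that of Dusp1 and Spred1 in 3, that of Dusp4 in the 2 morphine groups, and that of Spry4 in 3, the exception being Vdr-/- morphine mice. Averaged over the groups, 72.8% of all genes were called. The share of all genes called within a single group is not given here, so these counts do not set the members apart from other genes.

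The 8 tested genes were also compared with one another. Over the 12 nucleus accumbens libraries, 27 of 28 pairs had a positive Pearson's r of log2(CPM + 1), with a median of 0.57, or 0.51 after group means were removed. The highest were Dusp14 with Spry2 (0.86) and Dusp4 with Spry4 (0.84). In the VTA 19 of 28 pairs were positive, with a median of 0.16, and the highest was Dusp14 with Spred1 (0.73). All points of a correlation share the library and its depth, so these values are given as a description.

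Among other genes with a mean of at least 5 CPM, those most like Dusp1 over the 12 nucleus accumbens libraries were Slc7a1 (r = 0.86), Fos (0.85) and Fosb (0.84). Those most like Spry2 were Msl1 (0.93) and the early genes Egr2 (0.88) and Egr1 (0.87), and the gene most like Dusp4 was the orphan nuclear receptor gene Nr4a3 (0.95). Spry4 was most like the chaperone genes Hspa5 (0.95) and Hspa8 (0.95), followed by Crkl (0.93). The nearest neighbours of the others were Dleu2 for Dusp14 (0.93), Akirin2 for Dusp5 (0.92), Utp14a for Dusp6 (0.89) and Zfp91 for Spred1 (0.98).

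In the VTA the neighbours were Rasgrp1 for Dusp1 (0.93), Ptpn5 for Dusp4 (0.81), H6pd for Dusp5 (0.91), Armc1 for Dusp6 (0.90), Dbpht2 for Dusp14 (0.95), Notch1 for Spry2 (0.89), Sdf2l1 for Spry4 (0.86) and Stox2 for Spred1 (0.96).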

How the data were processed

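Bilateral micropunches of 2 regions from 12 mice gave 24 mRNA libraries. The authors trimmed reads with Trimmomatic 0.36, mapped them with STAR 2.4.2a to the GENCODE mouse genome, counted them per gene, and deposited normalized signal, that is, read counts divided by DESeq2 size factors, in 8 tables of 2 groups. Of the values, 100% were whole multiples of 1 read (tolerance 0.01), so reads were recovered. The strand counted is not given in the sources used here. The VTA tables of morphine against PBS lack wild-type PBS mouse 3 and Vdr-/- PBS mouse 8, where the design had assumed 3 PBS mice.

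Within tables, limma 3.58.1 was run on log2(value + 1) of genes with a mean of at least 10 (trend, two-sided, Benjamini-Hochberg over all genes, threshold 0.05), so fold changes of low genes are understated. The interaction took each genotype from its own table. Regions were compared within mice, matched by label number, on log2(CPM + 1), scaled by the trimmed mean of M-values, at a mean CPM of at least 0.5. edgeR 4.0.16 and DESeq2 1.42.0 on recovered reads were alternatives. Fits for morphine in Vdr-/- mice and for the nucleus accumbens interaction were tried on simulated counts with the same dispersion for every gene. So were the regional difference and its change with morphine in wild-type mice, and the other fits were not. R 4.3.3 and Python 3.11.15 were used. The sources used here do not say whether PBS and morphine mice were housed or prepared apart. In the labels, PBS mice have whole numbers and morphine mice have numbers with a point. The p-values measure the spread between mice within groups. A difference in preparation between the injections could not be told apart from morphine.

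The members and lists were chosen with earlier results of these data known. Named from each list were at most 3 called genes of largest change, and per member the 3 genes of highest correlation at a mean of at least 5 CPM. Some genes that this rule names are not reported here. Gene positions are from GENCODE M21 (GRCm38), and promoters from RefSeq.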

Additional observations from a re-analysis of the deposited data

Results flagged for a closer look

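Dusp14 and Dusp4 are given here because the change with morphine differed between the regions of wild-type mice, with libraries paired by label number. For Dusp14, the regional difference changed by -1.05 on the log2 scale (adjusted p = 0.0209, limma), with lower levels in the nucleus accumbens and higher levels in the VTA of all 3 morphine mice than of all 3 PBS mice. For Dusp4 it changed by 0.56 (adjusted p = 0.0211), with higher nucleus accumbens levels in all 3 morphine mice. Without the pairing, Dusp4 was not called (adjusted p = 0.149). Both comparisons were added after the data were seen.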

How the results depend on the processing

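The regional calls and directions of the 8 genes held under all settings tried, and no setting called a member between genotypes or for the interaction. Calls with morphine rest on 3 against 3 or 3 against 2 mice and moved as follows, the cause not tested. Without the trend in the variance, members called were 3 in Vdr-/- nucleus accumbens and 0 in either genotype's VTA. With edgeR on all 12 libraries of a region, added after the data were seen, they were 2 in Vdr-/- nucleus accumbens and 2 in wild-type VTA (Dusp14 and Spred1), and with edgeR on the deposited libraries none in wild-type VTA. DESeq2 called 5 members in Vdr-/- nucleus accumbens, without Dusp5.

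Counts over all genes moved more. For genotype they were 11 (PBS) and 30 (morphine) in the nucleus accumbens and 64 and 10 genes in the VTA, which became 63, 51, 290 and 95 with DESeq2. Without the trend the last 3 were 10, 17 and 5. With edgeR on all 12 libraries they were 45 and 14 in the nucleus accumbens and 26 genes in the VTA after morphine. For morphine, the 128 and 3018 genes of wild-type and Vdr-/- nucleus accumbens became 27 and 1237 without the trend and 1075 and 1177 with edgeR on all 12 libraries, and 493 in wild-type mice with DESeq2. The 591 and 1639 genes of the VTA became 56 and 0 without the trend, and the wild-type count 1358 with DESeq2, 2012 with all 3 PBS mice and 3275 with edgeR on all 12 libraries. The 9 interaction genes of the VTA became 48 with DESeq2 and 0 with edgeR, without the trend and without the filter. For the change of the regional difference with morphine, no replicate block gave 1253 genes and 1 member (Dusp14) against 756 and 2 in wild-type mice, and 109 against 0 in Vdr-/- mice, where no trend gave 30.

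The digit after the point in the mouse numbers pairs no mice in the labels, and deviations of same-numbered morphine mice correlated at -0.29 to 0.05. With it as a replicate block, genotype after morphine gave 19 genes in the nucleus accumbens and 4 genes in the VTA, and no member in either. Nucleus accumbens and VTA libraries were paired by label number, which the sources used here do not tie to a mouse outright. Their deviations from the group means correlated at -0.076 to 0.22 in the 12 same-numbered pairs, 5 of them over 0.1, and at -0.13 to 0.11 in the 24 others of the same groups, so the pairing is not shown by the data.

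Leaving out 1 library, genotype counts ranged over 2 to 28 (PBS) and 14 to 47 (morphine) genes in the nucleus accumbens and 13 to 370 and 5 to 49 in the VTA. Morphine counts ranged over 0 to 627 (wild-type) and 1566 to 3133 (Vdr-/-) in the nucleus accumbens, with 0 to 1 and 3 to 7 members, and over 0 to 2817 and 0 to 2272 in the VTA, with 0 to 1 member each. Interactions ranged over 0 to 1 gene in the nucleus accumbens and 0 to 226 in the VTA. Leaving out 1 mouse, the change of the regional difference with morphine ranged over 58 to 910 genes and 0 to 2 members in wild-type and 0 to 5 genes in Vdr-/- mice, and its genotype comparison over 0 to 3 genes after PBS.

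Signs turned only for uncalled values. For genotype in the VTA after morphine, Dusp5 (0.10) was -0.14 with edgeR on the same libraries, -0.16 with DESeq2 and -0.14 with edgeR on all 12 libraries. For morphine in Vdr-/- VTA, Dusp1 (0.04) was -0.037 with edgeR, -0.024 with DESeq2, -0.019 with all 3 PBS mice and -0.0095 with edgeR on all 12 libraries. With 1 library left out, genotype in the nucleus accumbens after PBS spanned -0.25 to 0.050 for Dusp4 and -0.31 to 0.039 for Spred1, and in the VTA -0.10 to 0.076 for Dusp6. After morphine in the VTA it spanned -0.21 to 0.082 (Dusp1), -0.54 to 0.60 (Dusp5), -0.20 to 0.016 (Dusp6), -0.11 to 0.084 (Spry2) and -0.040 to 0.023 (Spred1). Morphine in the nucleus accumbens spanned -0.066 to 0.28 for Spred1 (wild-type) and -0.060 to 0.16 for Dusp14 (Vdr-/-). In wild-type VTA it spanned -0.42 to 0.20 (Dusp4), -0.13 to 0.23 (Dusp6) and -0.19 to 0.051 (Spry4), and in Vdr-/- VTA -0.37 to 0.45 (Dusp1), -0.041 to 0.20 (Dusp5) and -0.059 to 0.11 (Dusp6). The VTA interaction spanned -1.11 to 0.032 for Dusp5 and -0.22 to 0.14 for Dusp6. Dusp2, at 2 to 12 reads, was too shallow for any difference to be detected.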
